A study of Mus musculus with 3 samples.

Results

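The genes described here are 8 genes of the sterol response: Srebf1 and Srebf2, Scap, Insig1 and Insig2, Hmgcs1 and Sqle, and Abcg1. For each gene, every ETV5 peak and every H3K4me3 peak with at least 1 base in the gene body or within 20 kb of it was taken (gene ends from RefSeq on GRCm38). This gave 39 of the 31165 ETV5 peaks and 16 of the 15134 H3K4me3 peaks, at 8 of 21887 protein-coding genes on assembled chromosomes. Chromatin of alveolar type II (AT2) cells was immunoprecipitated with antibodies to ETV5, an ETS-family transcription factor, and to histone H3 trimethylated on lysine 4 (H3K4me3), a mark of active promoters, and an input library was listed beside them. All 3 samples were AT2 cells of C57BL/6 mice aged 10 to 12 weeks, and the labels name no treatment and no genetic change. Each antibody had 1 library, so no value below has a replicate, and no test across samples was possible. H3K4me3 within 1 kb of a gene boundary marked 10 of 10 AT2 marker genes and 4 of 6 AT1, 2 of 4 ciliated, 2 of 6 leukocyte, 1 of 6 endothelial, 0 of 6 mesenchymal and 0 of 3 airway secretory marker genes. The share of all protein-coding genes under this 1-kb rule is not given here, and these counts do not measure purity. With the wider window of 20 kb, 66.0% of all protein-coding genes had H3K4me3. The number of mice pooled and the way the cells were purified were not stated.

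SREBP transcription factors are made as membrane proteins of the endoplasmic reticulum. When sterols are scarce, SCAP escorts them to the Golgi, where proteases release the part that enters the nucleus and switches on genes of lipid synthesis; when sterols are plentiful, INSIG proteins hold SCAP back. SREBP-1, from Srebf1, is best known for fatty acid synthesis genes and SREBP-2, from Srebf2, for cholesterol synthesis genes. AT2 cells make surfactant, which is rich in phospholipid and also holds cholesterol.

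ETV5 lay at 7 of the 8 genes, all but Abcg1 (87.5%, exact 95% Clopper-Pearson interval 47.3 to 99.7). Of all protein-coding genes 68.6% had an ETV5 peak under the same rule, which lies inside that interval. The same 7 genes had an ETV5 peak that overlapped H3K4me3, against 62.5% of all genes, and the same 7 had H3K4me3, against 66.0%. When a peak counted only for the protein-coding gene nearest to its summit, 7 members still had ETV5, against 57.9% of all genes. A fold enrichment of at least 10 was reached at 6 members, all but Sqle and Abcg1, against 51.5% of all genes. With 8 genes none of these counts stands apart from the background, and the members differed far more among themselves in the number, strength and place of their ETV5 peaks. Fold enrichment here is the value that the authors deposited for each peak, which sets its pileup of fragments against the local input. Pileups are given with exact 95% Poisson intervals, and all intervals cover counting error only.

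**Figure D1:**
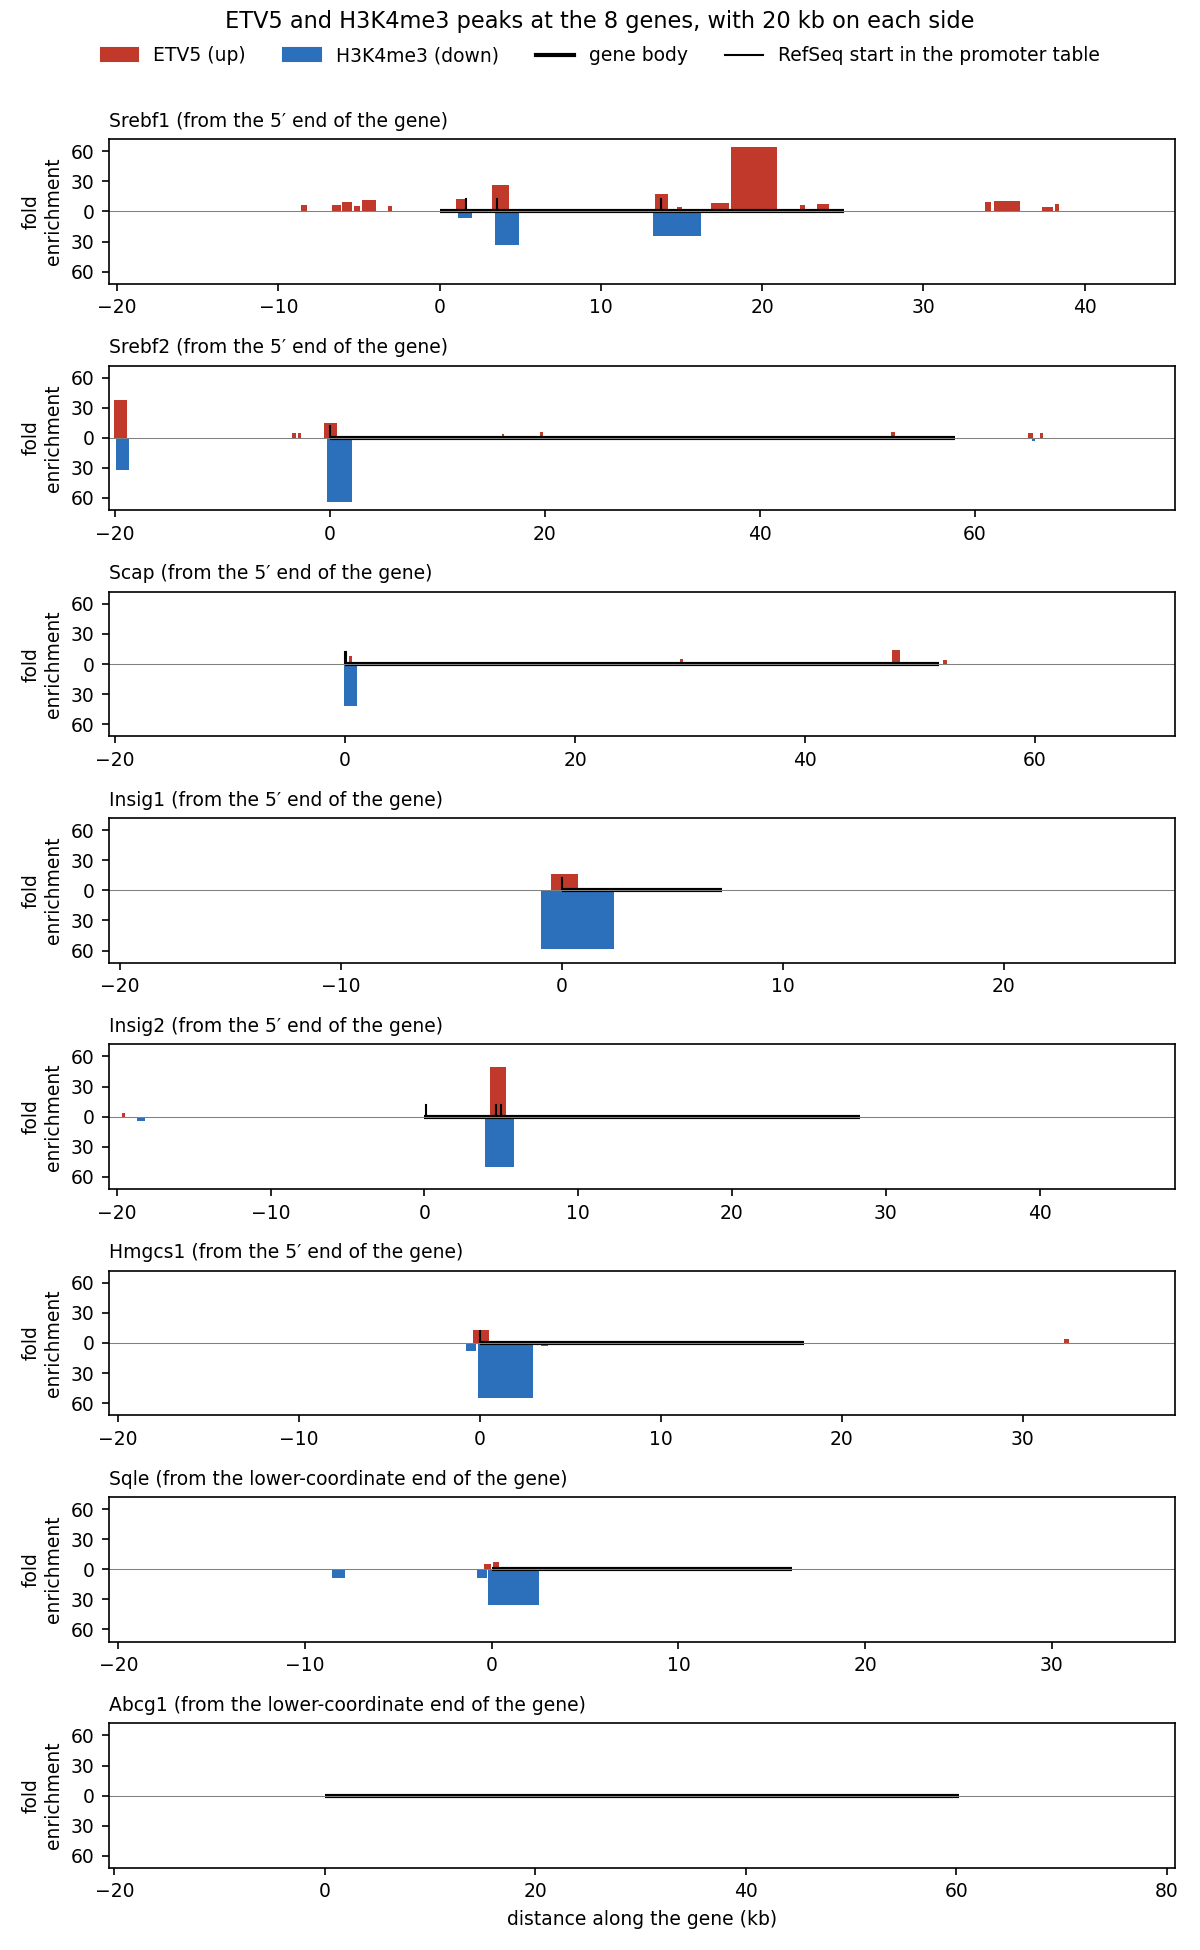
Fold enrichment of each ETV5 peak (red, upward) and each H3K4me3 peak (blue, downward) at the 8 genes, against distance in kb from the 5′ end of the gene, or from the end with the lower coordinate for Sqle and Abcg1. The black line is the gene body and ticks are RefSeq start sites in the promoter table. Srebf1 held 18 ETV5 peaks, Srebf2 9, Scap 5, Insig2, Hmgcs1 and Sqle 2 each, Insig1 1 and Abcg1 none.

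Srebf1 (chromosome 11, 60199084 to 60224186) carried the most ETV5 of the 8 genes, 18 peaks with folds of 4.13 to 64.1. Only 79 protein-coding genes (0.361%) had as many within the same window. The locus is crowded: 8 of the peaks had Srebf1 as the nearest gene, all inside its body, while 6 lay inside the neighbour Tom1l2 beyond the 5′ end and 4 inside Rai1 beyond the 3′ end. With nearest peaks alone, 1.89% of all genes had as many as the 8 of Srebf1. When peaks 500 bp or less apart were counted as 1, the 18 became 12. Per 100 kb of gene and window Srebf1 had 27.65 peaks, and 0.818% of all genes were as dense.

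The strongest ETV5 peak of Srebf1 was not at a start site. It spanned 2851 bp in the part of the gene towards its 3′ end (60203276 to 60206126), reached fold 64.1 and a pileup of 138 fragments (interval 116 to 163), and its summit lay 6185 bp from the 3′ boundary and 5202 bp beyond the nearest RefSeq start. It overlapped no H3K4me3; the nearest H3K4me3 peak began 1860 bp away. Among the 15927 ETV5 peaks outside H3K4me3, whose median fold was 5.30 and median width 280 bp, it ranked 7 by fold and 2 by width. Among all 31156 ETV5 peaks on assembled chromosomes it ranked 281. A weaker peak of fold 8.26 followed at 60206243 to 60207346, and one of fold 7.67 (60200049 to 60200808) covered the hairpin of Mir6921 nearer the 3′ end. The gene table gives only gene ends, so exon and intron were not told apart.

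At the listed start sites of Srebf1 both signals were present together. The promoter table, which holds 300 bases per RefSeq start (250 before it and 50 from it on), lists 3 starts, and each had an ETV5 and an H3K4me3 peak over it. The 5′ end of the gene (60224186) lies upstream of all 3, and no peak of either antibody covered it. At the most upstream start the ETV5 peak had fold 12.8 (pileup 33, 22.7 to 46.3) and the H3K4me3 peak fold 6.65 (pileup 43, 31.1 to 57.9). At the middle start these were 26.7 (59, 44.9 to 76.1) and 33.1 (210, 183 to 240). At the start farthest downstream they were 17.6 (36, 25.2 to 49.8) and 24.0 (152, 129 to 178). The middle start thus had the highest fold of both signals. Its ETV5 pileup interval overlapped that of the downstream start and, by a little, that of the upstream start. Such overlap does not decide whether pileups differ, and the ETV5 order was not tested. The H3K4me3 interval of the upstream start lay below those of the other starts. The 64.1-fold peak had a pileup interval above all 3. Srebf1 is known to give SREBP-1a and SREBP-1c from separate starts; the promoter table does not name the protein that each start gives. The folds of the 2 antibodies have different inputs and depths and are not on a common scale. The 300 bases at the middle start are shown because both signals peak there; capitals here and below mark matches to the searched motifs, which are ETS CCGGAA and CCGGAAGT, sterol response TCACNCCAC, E-box CACGTG, NF-Y CCAAT and GC box GGGCGG, on either strand. In this window they are 3 GC boxes and a CCGGAA match (as TTCCGG). That match begins 26 bases past the start, 39 bp from the ETV5 summit (RefSeq, GRCm38.p6, minus strand, chr11:60220578-60220877).
Srebf1, middle start: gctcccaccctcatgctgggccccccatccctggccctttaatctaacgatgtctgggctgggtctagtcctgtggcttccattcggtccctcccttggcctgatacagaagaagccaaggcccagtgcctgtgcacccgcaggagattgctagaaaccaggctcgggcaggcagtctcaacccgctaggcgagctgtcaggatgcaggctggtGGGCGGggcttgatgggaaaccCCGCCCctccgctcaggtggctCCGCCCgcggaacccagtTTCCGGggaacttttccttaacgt

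**Figure D2:**
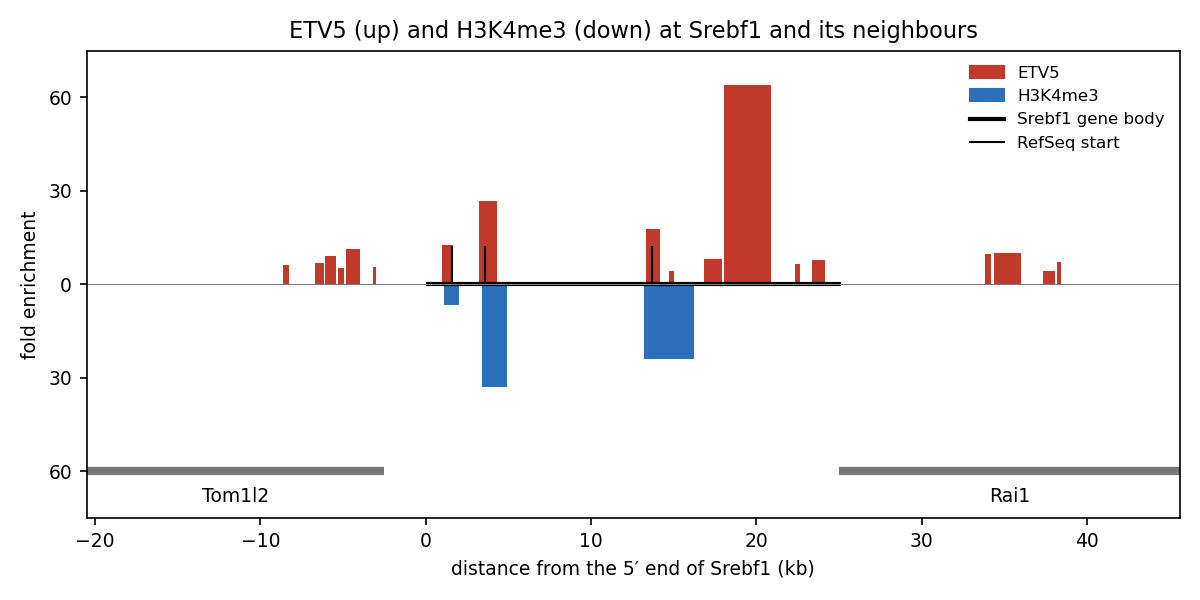
Fold enrichment of ETV5 (red, upward) and H3K4me3 (blue, downward) peaks at Srebf1, against distance in kb from its 5′ end, with the neighbours Tom1l2 and Rai1 as grey bars. ETV5 reached 64.1 in a 2851-bp peak without H3K4me3, and 26.7, 17.6 and 12.8 at the 3 RefSeq starts in the promoter table, where H3K4me3 was also called.

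**Figure D3:**
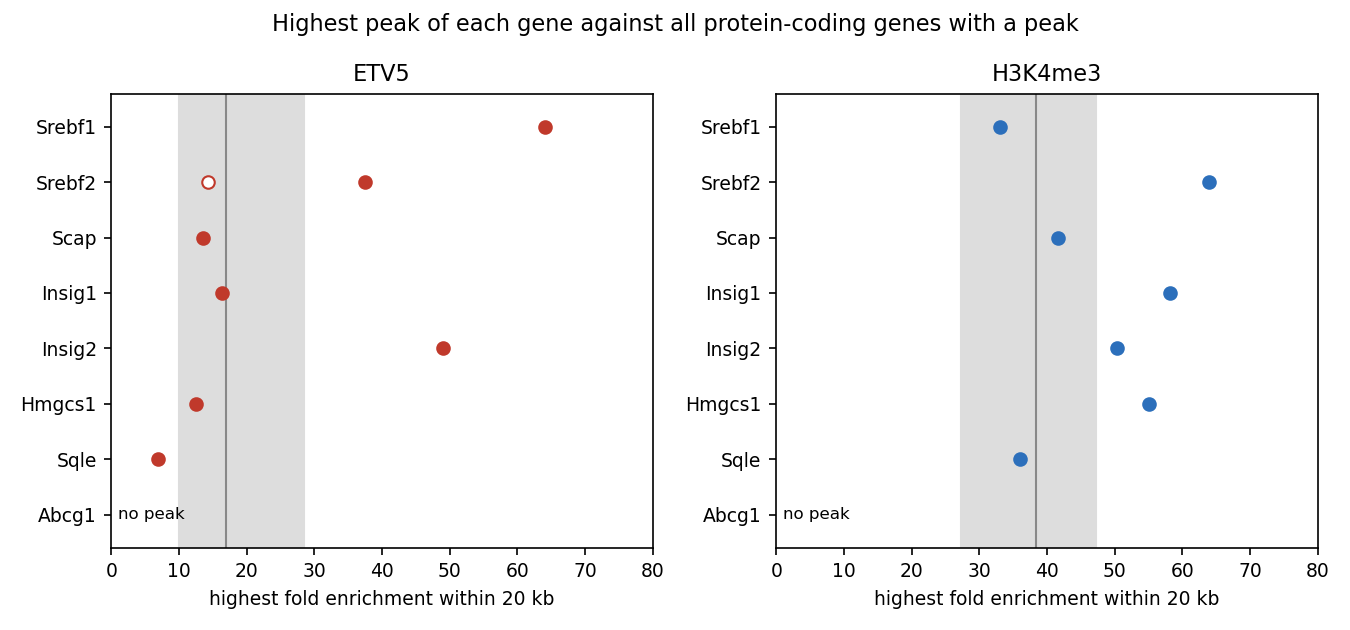
Highest ETV5 fold (left) and H3K4me3 fold (right) within 20 kb of each gene. The grey band and line are the quartiles and median over all protein-coding genes with such a peak; the open circle is the highest peak nearest to Srebf2 itself. In ETV5 Srebf1 and Insig2 stand above the band with peaks of their own, and in H3K4me3 Srebf2, Insig1, Hmgcs1 and Insig2 do.

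Srebf2 (chromosome 15, 82147269 to 82205379) had 9 ETV5 peaks, but the highest was not its own. That peak, of fold 37.5 (82127173 to 82128472, pileup 91, 73.3 to 112), lay 19324 bp upstream at the boundary of Ccdc134, over most of its width within an H3K4me3 peak of fold 32.0. Over the start of Srebf2 itself the ETV5 peak had fold 14.3 (82146743 to 82148001, pileup 40, 28.6 to 54.5), with the summit 132 bp before the start. H3K4me3 there had fold 64.0 (82147058 to 82149379, pileup 407, 368 to 449), the highest of the 8 genes, and 0.571% of all genes had a peak as high within the window. The ETV5 peak lay over the upstream edge of this H3K4me3 peak, whose summit was 340 bp past the start. The other 7 ETV5 peaks were weak, with folds of 4.21 to 5.63, and only 3 of them lay inside the gene. The hairpin of Mir33, whose microRNA is known to repress cholesterol export genes, lies inside Srebf2 and was 1297 bp from the nearest ETV5 peak, of fold 5.28. The promoter is shown because the highest H3K4me3 fold of the set lies over it. Its window held 5 GC boxes, an NF-Y match (as ATTGG) and no exact match to the searched ETS or sterol response letters (plus strand, chr15:82147019-82147318). Variants of these letters were not searched.
Srebf2: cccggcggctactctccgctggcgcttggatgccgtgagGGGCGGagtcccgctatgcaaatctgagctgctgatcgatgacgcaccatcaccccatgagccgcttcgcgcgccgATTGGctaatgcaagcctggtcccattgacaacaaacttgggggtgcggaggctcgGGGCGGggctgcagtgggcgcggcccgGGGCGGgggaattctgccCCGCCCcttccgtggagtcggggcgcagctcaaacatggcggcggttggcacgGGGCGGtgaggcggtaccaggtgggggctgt

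Scap (chromosome 9, 110333288 to 110384949), the escort of the SREBPs, had 5 ETV5 peaks. Of these, 2 overlapped 1 H3K4me3 peak at its start (fold 41.6, pileup 264, 233 to 298). The peak over the start had fold 11.8 (110333170 to 110333481, pileup 28, 18.6 to 40.5) and that just inside had fold 8.01 (110333634 to 110333909, pileup 17, 9.90 to 27.2). A peak near the 3′ end had fold 13.6 (110380879 to 110381552, pileup 26, 17.0 to 38.1), without H3K4me3, whose nearest peak was 25700 bp away. The pileups at the start and near the 3′ end had overlapping intervals, and their order was not tested. Of the ETV5 peaks outside H3K4me3, 3.35% had a fold as high. The other 2 peaks had folds of 5.39 and 4.06, and that of fold 4.06 lay inside the neighbour Ptpn23. Both RefSeq windows of Scap, which overlap each other, held an E-box match and no match to CCGGAA.

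Insig1 and Insig2 encode the proteins that retain SCAP, and their loci differed in ETV5. Insig1 (chromosome 5, 28071412 to 28078662) had a single ETV5 peak, of fold 16.4 (28070934 to 28072126, pileup 41, 29.4 to 55.6), with its summit 206 bp past the start. It lay wholly inside a 3303-bp H3K4me3 peak of fold 58.2 (pileup 371, 334 to 411), and 97.2% of H3K4me3 peaks were narrower. Insig2 (chromosome 1, 121304353 to 121332662) had fold 49.0 in a 1001-bp ETV5 peak (121327387 to 121328387, pileup 99, 80.5 to 121), which lay wholly inside an H3K4me3 peak of fold 50.3 (pileup 320, 286 to 357). The ETV5 pileup intervals of Insig2 and Insig1 do not overlap, while their H3K4me3 intervals do. Of all protein-coding genes, 5.21% had an ETV5 fold as high as Insig2 within the window and 35.5% one as high as Insig1.

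At Insig2 the signals were placed on some start sites and not on others. Its RefSeq starts are 3. The most upstream, near the 5′ boundary of the gene, had neither ETV5 nor H3K4me3 over its window, and the middle and downstream starts, inside the gene, shared the peaks of both antibodies. The ETV5 summit lay 129 bp past the middle start and at −217 from the downstream one, where positions are counted from the start as 0 and are negative before it. The upstream window had no CpG and 46.0% G or C, the middle window 17 CpG and 57.0%, and the downstream window 28 CpG and 69.3%; the medians over 21263 promoter windows of protein-coding genes were 13 and 56.3%. The downstream window holds the longer ETS letters CCGGAAGT from position −223, and the ETV5 summit falls inside them. A further CCGGAA begins at −168, 49 bp from the summit. Among the 4785 windows that hold an ETV5 summit, 46 (0.961%) had it inside a CCGGAAGT match, and in 30.6% a CCGGAA match lay within 50 bp of it. This look at the summit was chosen after the values were seen. Upstream of Insig2 and outside the gene lay a weak ETV5 peak (fold 4.08, pileup 6, 2.20 to 13.1) and a weak H3K4me3 peak (fold 4.71), 780 bp apart, with Insig2 as the nearest protein-coding gene for both. The windows of the unmarked upstream start and the marked downstream start are shown beside each other (minus strand, chr1:121332540-121332839 and chr1:121327629-121327928).
Insig2, upstream start: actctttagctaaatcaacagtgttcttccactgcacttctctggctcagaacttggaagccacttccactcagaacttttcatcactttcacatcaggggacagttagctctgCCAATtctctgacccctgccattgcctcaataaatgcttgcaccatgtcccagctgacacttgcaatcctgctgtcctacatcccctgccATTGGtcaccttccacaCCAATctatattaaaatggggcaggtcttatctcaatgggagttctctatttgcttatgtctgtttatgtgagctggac
Insig2, downstream start: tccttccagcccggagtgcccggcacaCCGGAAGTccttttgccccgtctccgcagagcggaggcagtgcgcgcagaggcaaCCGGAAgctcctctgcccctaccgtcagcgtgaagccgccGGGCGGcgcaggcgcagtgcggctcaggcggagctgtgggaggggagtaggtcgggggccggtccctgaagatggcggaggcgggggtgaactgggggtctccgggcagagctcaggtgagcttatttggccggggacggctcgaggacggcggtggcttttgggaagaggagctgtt

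Hmgcs1 and Sqle encode enzymes of cholesterol synthesis, HMG-CoA synthase at the entry of the mevalonate pathway and squalene epoxidase at the start of its sterol-specific part. ETV5 was called at both. Hmgcs1 (chromosome 13, 119690351 to 119708260) had an ETV5 peak of fold 12.5 over its start (119689949 to 119690849, pileup 29, 19.4 to 41.6) and H3K4me3 of fold 55.0 over 3056 bp (119690227 to 119693282, pileup 350, 314 to 389). The summits of both signals lay 2 bp apart, 271 and 273 bp past the start. Sqle (chromosome 15, 59315092 to 59331193) had ETV5 peaks of fold 5.47 (59314674 to 59315036, pileup 10, 4.80 to 18.4) and 6.96 (59315178 to 59315467, pileup 13, 6.92 to 22.2) on either side of its lower-coordinate end. The highest ETV5 fold of Sqle was the lowest among the 7 genes with ETV5, although its pileup interval overlapped that of Hmgcs1. H3K4me3 there had fold 36.1 over 2721 bp (59314901 to 59317621, pileup 229, 200 to 261). Of all genes, 60.6% had an ETV5 fold as high as Sqle and 37.6% an H3K4me3 fold as high.

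Hmgcs1 and Sqle shared a feature of layout at this end, which was picked out after the values were seen. In each, a smaller H3K4me3 peak, of fold 7.59 at Hmgcs1 and 8.30 at Sqle, lay next to the main one, and an ETV5 peak covered the whole gap between them, 121 bp at Hmgcs1 and 83 bp at Sqle. The summit of this ETV5 peak lay in the main H3K4me3 peak at Hmgcs1 and inside the gap at Sqle. Of all ETV5 peaks that overlapped H3K4me3, 2.68% overlapped 2 or more H3K4me3 peaks. How many other genes have this layout was not counted. Another peak at the Hmgcs1 locus, of fold 4.31, lay inside the neighbour Nim1k. The Hmgcs1 window is shown because it was the only one of the 11 member windows with the sterol response letters, as TCACCCCAC from position −137. It also held 4 NF-Y matches, 3 GC boxes and a CCGGAA match (as TTCCGG) from position −86, 352 bp from the ETV5 summit (plus strand, chr13:119690101-119690400). The promoter table has no entry for Sqle or Abcg1.
Hmgcs1: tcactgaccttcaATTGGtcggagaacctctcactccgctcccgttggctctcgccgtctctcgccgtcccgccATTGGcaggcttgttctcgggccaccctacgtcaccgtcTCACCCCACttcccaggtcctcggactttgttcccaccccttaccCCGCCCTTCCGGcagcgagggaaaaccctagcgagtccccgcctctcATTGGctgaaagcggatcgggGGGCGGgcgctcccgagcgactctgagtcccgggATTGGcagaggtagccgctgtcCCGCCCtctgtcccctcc

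Abcg1 (chromosome 17, 31057694 to 31117984) encodes a transporter that exports cholesterol, and it had neither ETV5 nor H3K4me3 in the gene or within 20 kb. The nearest ETV5 peak lay 155175 bp away (fold 4.94) and the nearest H3K4me3 peak 158913 bp away (fold 8.78), both at Rsph1. Of all protein-coding genes, 28.9% had neither signal within the window. A pileup of 5 fragments was the lowest in the ETV5 list, so weaker binding was not detectable at this depth.

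Across the 8 loci, 14 of the 39 ETV5 peaks overlapped H3K4me3 (35.9%, 21.2 to 52.8), against 48.9% of all ETV5 peaks and 51.6% of those within 20 kb of a protein-coding gene. Both shares lie inside the interval, and without Srebf1 the share was 47.6% (10 of 21 peaks). The interval treats peaks as independent, although 18 of the 39 lie at Srebf1, some of them close together. Overlapping peaks were the stronger ones here as in the whole list, with median folds of 12.7 inside H3K4me3 and 5.63 outside it at these loci, against 11.1 and 5.30 in the list. Of the 13 member peaks with fold of at least 10, 9 overlapped H3K4me3 (69.2%), against 87.5% of such peaks in the list. The 4 that did not were the 64.1-fold peak in Srebf1, the 13.6-fold peak in Scap, and 2 peaks at the neighbours of Srebf1. Of these neighbours, Tom1l2 held fold 11.3 (60228141 to 60228999, pileup 29, 19.4 to 41.6) and Rai1 fold 10.1 (60188183 to 60189799, pileup 20, 12.2 to 30.9). Conversely, 13 of the 16 H3K4me3 peaks held ETV5, against 84.2% of all H3K4me3 peaks, and the 3 without it had folds of 2.90 at Hmgcs1, 4.71 at Insig2 and 8.29 at Sqle.

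Over the 7 genes with peaks, the highest ETV5 fold per gene had a median of 16.4, close to the 16.9 over all genes with a peak (quartiles 9.99 and 28.5). The highest H3K4me3 fold had a median of 50.3, against 38.4 over all marked genes (27.3 and 47.2), and 4 of the 7 lay above the upper quartile. Taking for each gene its own highest peak, ETV5 ran from Srebf1 (64.1) and Insig2 (49.0) through Insig1 (16.4), Srebf2 (14.3), Scap (13.6) and Hmgcs1 (12.5) to Sqle (6.96). The pileups of Insig1, Srebf2, Scap and Hmgcs1, from 26 to 41, had overlapping intervals. The interval of Sqle overlapped those of Scap and Hmgcs1, and that of Srebf1 overlapped that of Insig2. Overlap of separate intervals does not decide whether pileups differ, and this order was not tested. The H3K4me3 order was another, from Srebf2 (64.0), Insig1 (58.2), Hmgcs1 (55.0) and Insig2 (50.3) to Scap (41.6), Sqle (36.1) and Srebf1 (33.1). The pileup intervals of neighbours in this order all overlapped. Srebf1, with the highest ETV5 fold, thus stood at the low end of the H3K4me3 folds, where its interval overlapped those of Sqle and Scap.

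Of the 11 RefSeq promoter windows of 6 member genes, 10 were overlapped by ETV5 and the same 10 by H3K4me3, all but the upstream start of Insig2. Over the promoter windows of all protein-coding genes these shares were 49.4% and 51.6%. Windows of the same gene share peaks, so the 10 are not independent. The ETS motif CCGGAA was found in 4 of the 11 windows (1 window of Insig2, 2 of Srebf1 and that of Hmgcs1). It was in 18.7% of all windows, 31.8% of those under an ETV5 peak and 5.88% of the others. The longer CCGGAAGT, which contains it, was in 1 member window and in 5.15% of all windows. The sterol response letters were in 1 and in 1.19%. The E-box was in 3 (that of Insig1 and both of Scap, which hold 1 and the same site in their shared bases) and in 7.84%. NF-Y was in 6 and in 38.2%, and the GC box in 9 and in 46.2%. Under ETV5 peaks the shares were 1.11% for the sterol response letters, 10.9% for the E-box, 37.7% for NF-Y and 72.3% for the GC box. In the other windows they were 1.26%, 4.84%, 38.7% and 20.8%. Srebf2, Scap and Insig1 thus had ETV5 over windows in which these ETS letters were not found, and other ETS letters were not searched. The windows cover only part of these ETV5 peaks, and the rest was not searched. At Insig1 the ETV5 summit, 206 bp past the start, lies outside the window. The window of Insig1 is shown as an example of such a window, with 3 GC boxes, an E-box and an NF-Y match in capitals (plus strand, chr5:28071162-28071461).
Insig1: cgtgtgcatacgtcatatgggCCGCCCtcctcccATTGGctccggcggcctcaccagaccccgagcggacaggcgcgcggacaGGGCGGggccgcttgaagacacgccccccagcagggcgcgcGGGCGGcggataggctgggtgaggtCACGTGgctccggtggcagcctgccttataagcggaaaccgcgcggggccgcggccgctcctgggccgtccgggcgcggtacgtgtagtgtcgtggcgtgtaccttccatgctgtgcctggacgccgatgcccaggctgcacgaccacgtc

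Around the 8 genes, 51 other genes of the pathway were looked up in lists chosen with earlier results of these data known. ETV5 lay within 20 kb of 47 of them, with fold of at least 10 at 41, and H3K4me3 lay near 50. The shares over all genes were 68.6%, 51.5% and 66.0%. Counting a peak only for its nearest gene left 44 with ETV5, against 57.9%. The 41 include genes whose fold of at least 10 came from a peak nearest to a neighbour. In 30 of the 51 the highest peak was nearest to the gene itself. These are descriptions of the lists, not tests.

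The proteins that process SREBPs or degrade sterol enzymes had ETV5 at 11 of 11 genes, each with fold of at least 10 (median of the highest peaks 19.4, range 15.1 to 73.2). The highest were at Erlin2, an endoplasmic reticulum protein that takes part in protein degradation there (73.2), at Spring1, needed for the protease that first cuts SREBPs (46.6, nearest to the neighbour Rnft2), at the degradation factor Faf2 (34.9) and at the ubiquitin ligase Rnf139 (28.1). The proteases themselves, picked after their values were seen, had 19.4 at Mbtps1, nearest to the neighbour Hsdl1, and 23.5 at Mbtps2. The highest peaks nearest to the genes themselves had folds of 7.29 at Spring1 and 9.53 at Mbtps1, under 10. In all 11 the highest peak overlapped H3K4me3, against 87.5% of all ETV5 peaks with fold of at least 10.

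Among the other enzymes of cholesterol synthesis ETV5 lay at 19 of 19 genes, with fold of at least 10 at 14 (median 15.0, range 4.01 to 59.9). Over all protein-coding genes the shares were 68.6% and 51.5%, and the 14 include peaks nearest to a neighbour. In the 4 with the highest folds the peak was nearest to a neighbour: Idi1 with 59.9 at Wdr37, Mvd with 42.1 at Rnf166, Fdps with 40.4 at Rusc1 and Tm7sf2 with 35.3 at Syvn1. The highest peaks that were nearest to these genes themselves had folds of 11.0 at Idi1, 8.96 at Mvd and 4.89 at Fdps, and Tm7sf2 had none. In 10 of the 19 the highest peak was nearest to the gene itself. Among these, picked after their values were seen, were lanosterol synthase Lss (33.4) and the sterol reductase Lbr (28.5), both above Hmgcs1 and Sqle. The lowest of these 10 were Sc5d (6.58) and Hsd17b7 (4.01), and Nsdhl had 4.90 in a peak nearest to its neighbour Cetn2; these 3 were also picked after their values were seen.

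Genes of sterol uptake, storage, transport and export, the group of Abcg1, had ETV5 at 17 of 21 (median 19.4, range 5.21 to 51.4). The 4 highest peaks were again nearest to neighbours. These were that of Npc1l1 at Nudcd3 (51.4), of Abcg4 at Hinfp (45.4), of the liver X receptor Nr1h3 at Madd (42.9) and of Soat2 at Spryd3 (31.7). The highest peaks nearest to these genes themselves had folds of 4.53 at Npc1l1, 5.34 at Abcg4 and 6.99 at Nr1h3, and Soat2 had none. In 11 of the 17 the highest peak was nearest to the gene itself. The 4 genes without ETV5 were the sterol transporters Abcg5 and Abcg8 and the sterol hydroxylases Ch25h and Cyp27a1. Ch25h shared with Abcg1 the lack of H3K4me3 in the window, and the highest H3K4me3 fold of the other 3 was 4.36 or 5.26. Abca1, the other major cholesterol exporter, had ETV5 of fold 11.8 and H3K4me3 of fold 41.7, where Abcg1 had no peak; it too was picked after its values were seen.

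**Figure D4:**
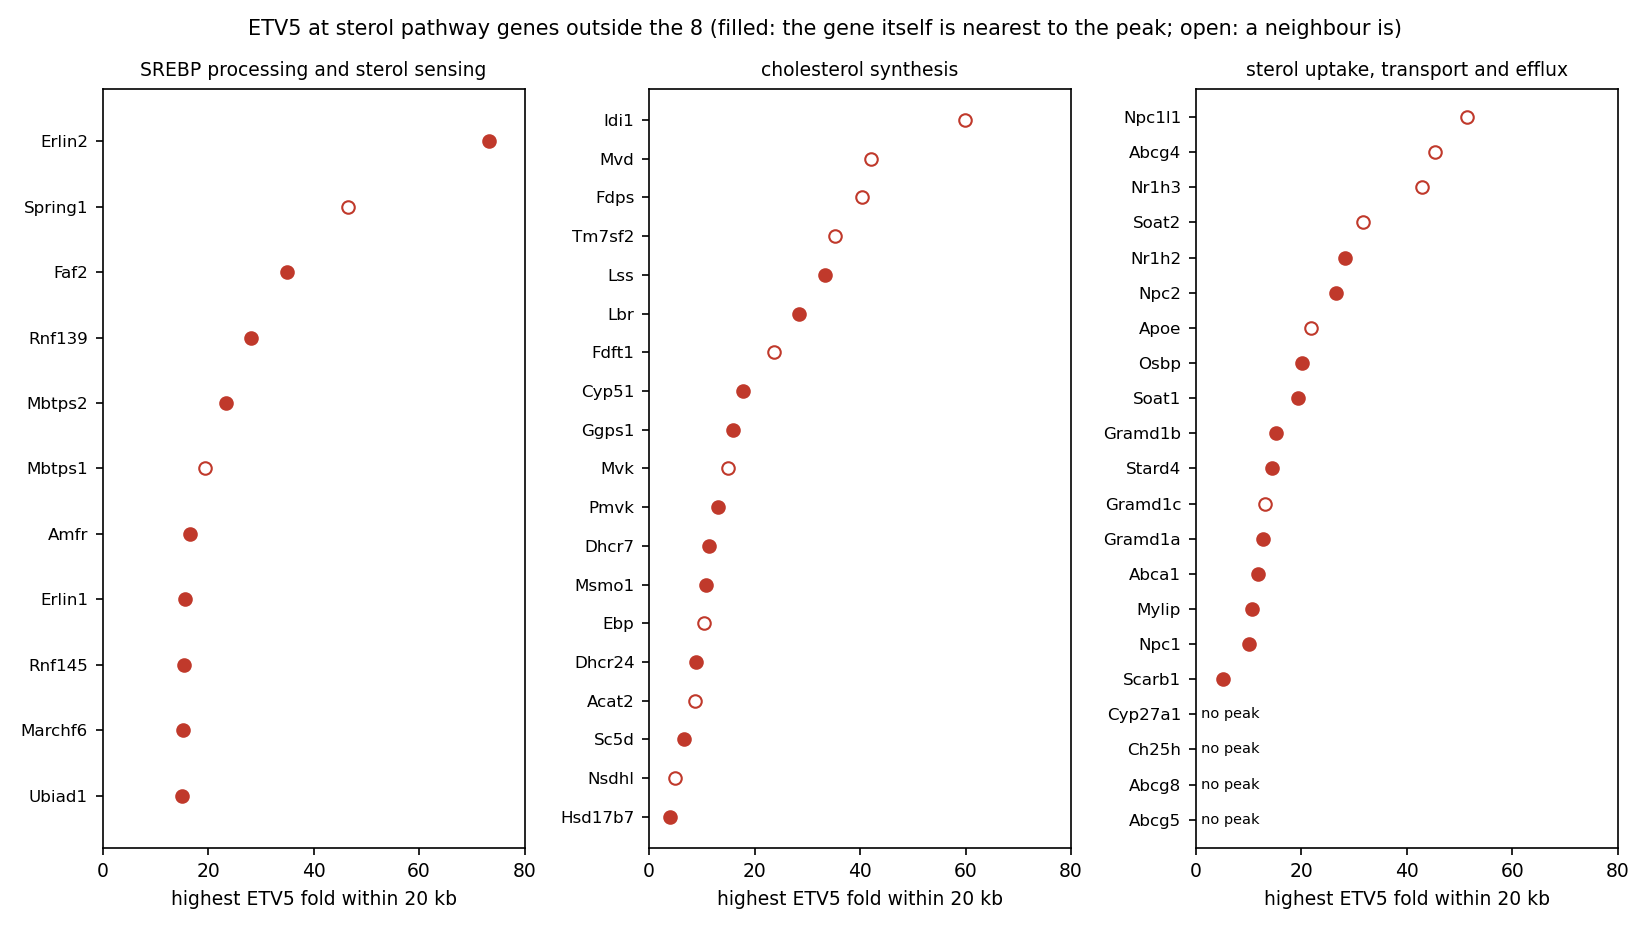
Highest ETV5 fold within 20 kb of 51 sterol pathway genes other than the 8, in 3 lists. Filled circles are peaks whose nearest protein-coding gene is the named gene and open circles peaks nearest to a neighbour. All 11 processing genes and all 19 synthesis genes had a peak, and 4 of the 21 transport genes had none.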

How the data were processed

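AT2 chromatin was sequenced after immunoprecipitation with each antibody, 1 library for ETV5 and 1 for H3K4me3, grouped by the antibody in the labels. Peaks were called for each library with MACS2 2.1.0.20150420, per the file headers and the submitters' processing notes, at a q-value threshold of 0.05 and with 1 tag kept per position. No aligner was named. The ETV5 list rests on 5715049 tags of 75 bp against 27495486 input tags, and the H3K4me3 list on 34907608 tags of 50 bp against 44758677 tags of a different input, per the file headers; the input sample in the labels is that of H3K4me3, and the ETV5 input was not analysed here. Depth therefore limits weak ETV5 peaks most. Per the file headers the larger library was scaled to the smaller, which was the ChIP library, and the deposited pileup signal holds whole numbers. The fold enrichment ratio was used as the authors deposited it. The deposited −log10 q-value served as a threshold and the deposited −log10 p-value was not used.

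The labels name build mm9, but the coordinates are those of GRCm38: 61.9% of H3K4me3 peaks on assembled chromosomes overlap a RefSeq promoter window of GRCm38.p6. Gene ends, start sites and sequences came from RefSeq tables of that build. Peaks were joined to genes, to each other (minimum overlap 1 bp) and to promoter windows with pandas 2.3.3 and numpy 2.4.6 under Python 3.11.15. Intervals came from scipy 1.17.1 and figures from matplotlib 3.10.9. The joins were checked on simulated data. The nearest gene of a peak is the protein-coding gene whose body is nearest to the summit, and inside several genes that with the nearest boundary. Alternatives were windows of 0 and 5 kb, −log10 q or fold of at least 10, other overlap rules and nearest genes only. The member genes, the 3 pathway lists and the marker lists were chosen with earlier results of these data known, and a few pathway genes are not reported here. Named are all members, the up to 4 highest-fold and up to 4 unbound genes of each pathway list, and those said to be picked later. No p-value was computed.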

Additional observations from a re-analysis of the deposited data

How the results depend on the processing

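ETV5 lay at 7 members under windows of 0 and 5 kb and with nearest genes only, and at 6 with a −log10 q or a fold of at least 10, where Sqle has no peak left. H3K4me3 lay at 7 under all its alternatives. Of the 51 other pathway genes, 41 to 47 had ETV5. The 39 ETV5 peaks became 20 in gene bodies alone, 19 at −log10 q of at least 10, 13 at fold of at least 10 and 22 with nearest genes only, and 30 when peaks 500 bp or less apart were joined, a choice made after seeing the data. The window of 5 kb gave 27. The 16 H3K4me3 peaks became 10 in gene bodies alone and 9 at fold of at least 10. The share of ETV5 peaks in H3K4me3 was 69.2% at fold of at least 10, and from 30.8 to 52.6% under the other overlap rules, at −log10 q of at least 10 and without Srebf1, the last also chosen after seeing the data. By highest ETV5 fold among protein-coding genes, Srebf2 ranked 2258 with 20 kb and 6964 with 5 kb, which leaves out the peak at Ccdc134; the other 6 ranks moved by less than 1.5 times. No paired analysis was possible because each antibody has 1 library. Interval and pileup error are of counting alone, and a second library was not analysed here.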
